A study of Mus musculus with 786 samples.

Results

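Glycolysis, the chain of enzymes that splits glucose into pyruvate, was followed here through the genes of its enzymes, of glucose and lactate transport, of lactate dehydrogenase and of the kinases that set the fate of pyruvate. The 34 genes were chosen by name from the pathway and not by a rule on their values, though with earlier results of these data known. Of these, 33 have a row among the 21664 genes of the single-cell tables and 33 among the 18855 of the bulk table. Eno1, the main enolase gene of most tissues, has no row of that name. The cells came from bone marrow of C57BL6 mice aged 6 to 8 weeks. Single cells were loaded on plates of 96 wells: 1 plate of MPP1 (multipotent precursors sorted as CD48-, CD150+, CD135- and CD34+) from bled mice, 1 plate of HSC (haematopoietic stem cells, sorted alike but CD34-) from bled mice, 2 plates of MPP1 and 3 plates of HSC. The growth note of HSC plate 3, which also held RNA spike-ins, names normal and bled mice together, and the labels do not say how many mice gave a plate. The bulk libraries, 1 for each of 18 sorted populations, held 1000 cells each.

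Of 460 wells labelled with 1 cell, 373 had at least 1000 genes at FPKM 1 (fragments per kilobase of transcript, scaled to the mapped fragments of the library, and so a level per transcript length) and were used. They were 50 bled MPP1, 48 bled HSC, 51 and 48 MPP1, and 50, 53 and 73 HSC. The median cell had between 1969 genes, on HSC plate 3, and 3046.5 genes, on the bled MPP1 plate. The 150 wells labelled with no cell had plate medians of 147.5 to 841 genes. Some of them also reached 1000 genes at FPKM 1: 3 of 29 on the bled MPP1 plate, 6 of 28 and 4 of 13 on MPP1 plates 1 and 2, and 7 of 21 on HSC plate 1. Cd34 averaged 66.7 FPKM in bled MPP1 and 36.3 in bled HSC, and 66.5 and 86.8 in MPP1 against 33.1, 37.1 and 48.2 in HSC, the order of the gates. The stem and multipotent markers Procr, Slamf1, Ly6a, Kit, Hlf and Mecom each averaged at least FPKM 1 on every plate. Other markers were found too. Megakaryocyte markers summed to 185 in bled MPP1 and 42.4 in bled HSC, 259 and 196 in MPP1, and 79.7, 78.8 and 79.6 in HSC. Markers of other cells summed to 184 on MPP1 plate 1 and lymphoid ones to 38.1 on MPP1 plate 2. There 10 of 11 sort marker genes averaged FPKM 1, so at least 1 of Cd48 and Flt3 (CD135) did, against the gate. In the bulk libraries markers went against labels in places. The label of bulk HSC gives the CD34+ gate of MPP1, while Cd34 was at 1785.5 FPKM in bulk MPP1 and 25.2 in bulk HSC. Ly6a, which encodes the sort antigen Sca-1, was at 0.626 FPKM in bulk MPP1 and 0.08 in bulk HSC, and at most 5.81 in any library. Procr, a marker of stem cells, was listed at 0 in bulk MPP1 and was at 0.161 in bulk HSC.

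Glucose enters a cell through transporters such as GLUT1 (Slc2a1) and GLUT3 (Slc2a3), hexokinase traps it as glucose 6-phosphate, phosphofructokinase commits it to glycolysis, and pyruvate kinase releases pyruvate at the end. Lactate dehydrogenase then turns pyruvate into lactate, which leaves through monocarboxylate transporters, unless pyruvate enters the mitochondrion through pyruvate dehydrogenase, which the PDK kinases switch off. Blood stem cells are known to lean on glycolysis, and mature red cells, which have no mitochondria, depend on it. Many steps can be run by several isozymes, related enzymes from separate genes, and tissues differ in which they use.

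The rows were matched to genes by their accessions. An accession of the named gene in RefSeq was found for 31 rows of single-cell values and for 32 rows of bulk values. The row named Gapdh carries an accession of a transcribed pseudogene in every table, and the row named Aldoa carries in the single-cell tables an accession that the RefSeq annotation used here does not hold. Reads of a gene and of its near-identical copies may not be told apart, so these values are given below as those of the Gapdh row and the Aldoa row. The row named Pkm2 is Pkm, the gene of muscle-type pyruvate kinase, whose M1 and M2 splice forms were not separated.

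Single MPP1 and HSC held transcripts for most of the pathway. Over 7 plates, 8 of the 33 genes were found at FPKM 1 in more than 50% of cells on average: the Gapdh row (92.1% ± 3.10 of cells, mean and SD over 7 plates here and below), the Aldoa row (86.2% ± 5.67), Ldha (83.3% ± 9.14), Pkm2 (81.7% ± 11.2), Gpi1 (75.6% ± 9.70), Pgk1 (64.2% ± 11.4), Tpi1 (64.1% ± 12.3) and Ldhb (58.4% ± 11.3). They run from the isomerase Gpi1 through aldolase, Tpi1, the Gapdh row, Pgk1 and Pkm2 to both subunits of lactate dehydrogenase. A further 7 genes were found in 20 to 50% of cells, among them Pgam1 (44.3% ± 12.5), a phosphoglycerate mutase between Pgk1 and Pkm2. Another 10 were found in 5 to 20%, 6 in fewer, and Pklr and Pgam2 in 0 of 373. The entry step was sparser, with Hk1 in 40.7% ± 7.82 and Hk2 in 39.3% ± 14.0 of cells. The 3 phosphofructokinase genes were sparser still, with Pfkl in 25.5% ± 10.7, Pfkp in 18.6% ± 6.58 and Pfkm in 14.4% ± 2.31. The median of the 33 genes was 18.3% of cells at FPKM 1.

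**Figure D1:**
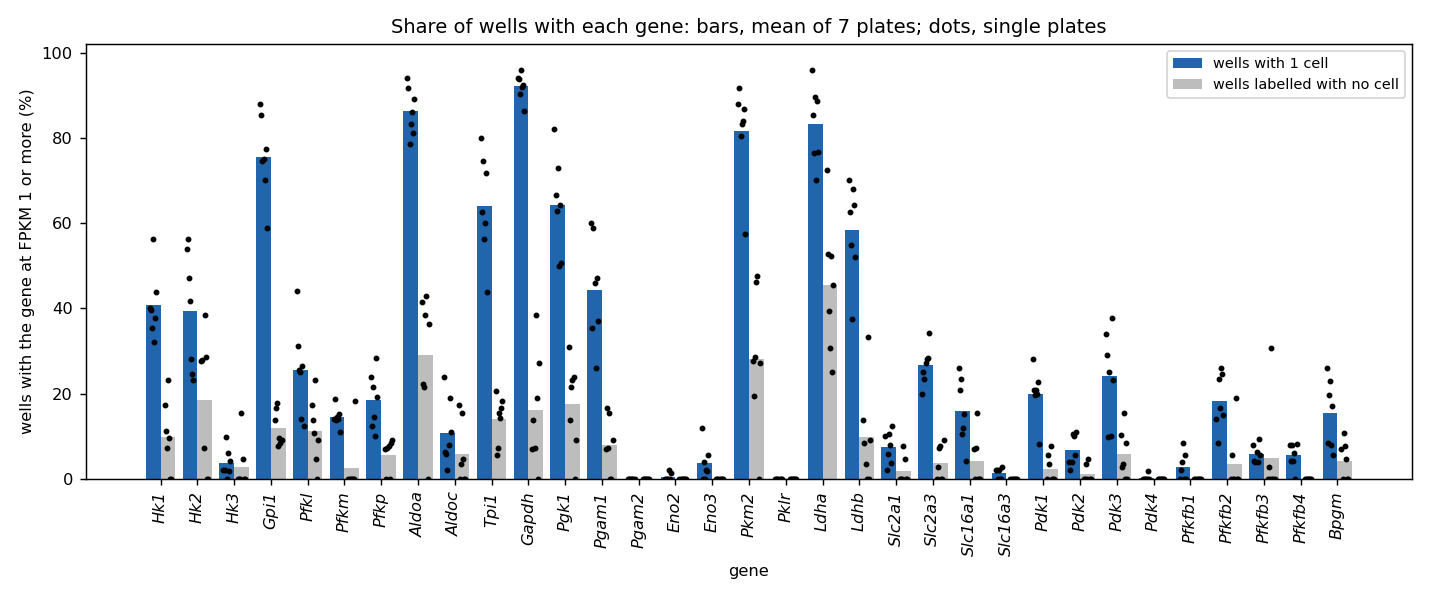
Share of wells with each gene at FPKM 1 or more (y axis, %), for wells with 1 cell and wells labelled with no cell on the 7 plates. The Gapdh row, the Aldoa row, Ldha and Pkm2 lead in cells, and Ldha reaches 72.4% in the no-cell wells of the bled MPP1 plate.

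Several of these genes were also found in wells with no cell. Ldha, whose subunit favours lactate, was found in 309 of 373 cells and 74 of 150 no-cell wells, that is in 82.8% of cells and 49.3% of no-cell wells. Pkm2 was in 80.2% of cells and 28.0% of no-cell wells, and the Aldoa row in 86.3% of cells and 29.3% of no-cell wells. No-cell wells less often held Gpi1, in 74.5% of cells and 13.3% of no-cell wells, Ldhb, whose subunit favours pyruvate, in 58.2% of cells and 10.7% of no-cell wells, and Slc2a3, in 27.1% of cells and 3.33% of no-cell wells. For hexokinase, Hk2 was in 38.1% of cells and 20.7% of no-cell wells and Hk1 in 40.8% of cells and 10.7% of no-cell wells. Means over no-cell wells could rest on 1 well: Bpgm averaged 727.8 FPKM over the 13 no-cell wells of MPP1 plate 2, where 1 well had it. On HSC plate 2, whose no-cell wells held the fewest genes, the cells had Ldha in 88.7%, Pkm2 in 86.8%, Ldhb in 64.2% and Hk2 in 24.5%, and the no-cell wells had these genes in 25.0%, 0%, 0% and 0%.

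Levels were set side by side as the mean FPKM over the cells of a plate. Ldha averaged 279.5 in bled MPP1 and 229 in bled HSC, 148 and 238 in MPP1, and 165, 173 and 177 in HSC. In wells with no cell it averaged 161 in bled MPP1 and 320.1 in bled HSC, 32.3 and 67.6 in MPP1, and 39.4, 9.15 and 122 in HSC, which on the bled HSC plate is above the mean of its cells. Pkm2 averaged 116 in bled MPP1 and 127 in bled HSC, 72.8 and 113 in MPP1, and 76.4, 78.0 and 48.6 in HSC. The MPP1 plates and the HSC plates overlapped for both genes. Tpi1, which interconverts the triose phosphates, averaged 135 in bled MPP1 and 72.6 in bled HSC, 131 and 67.1 in MPP1, and 55.0, 69.4 and 54.7 in HSC. Gpi1, which turns glucose 6-phosphate into fructose 6-phosphate, had a narrow range, between 28.9 and 46.5 FPKM on the 7 plates. Pgk1, the first ATP-forming enzyme of the pathway, lay between 22.1 and 47.2, and Pgam1, a phosphoglycerate mutase, between 21.2 and 55.0. Eno3, the muscle enolase, averaged at most 5.99 and Eno2, the neuronal one, at most 1.57.

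**Figure D2:**
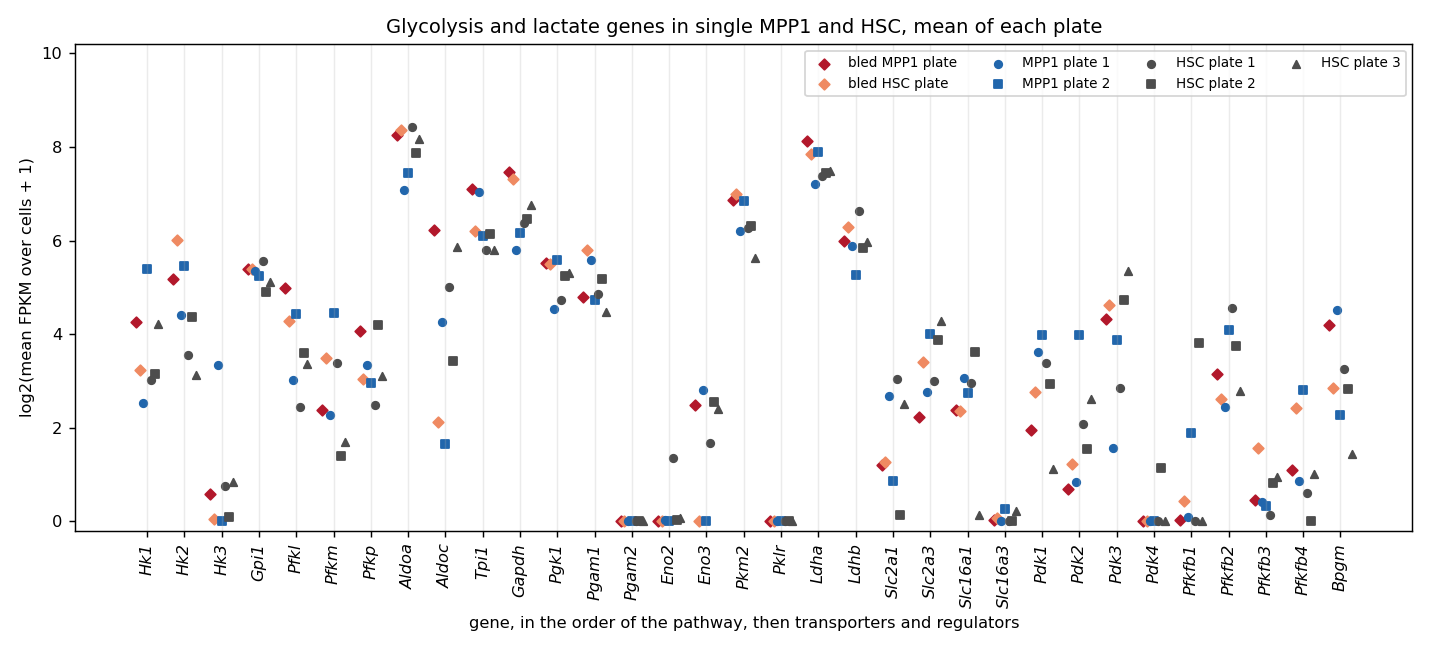
Mean level of each of the 33 genes in single cells on each plate, as log2(mean FPKM + 1) on the y axis, with genes in pathway order on the x axis; each point is 1 plate. The Aldoa row, Ldha, the Gapdh row, Pkm2, Tpi1 and Ldhb are high on every plate, while Pgam2, Pklr and Slc16a3 lie near 0.

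The plate means of sparse genes came from few cells. Aldoc, an aldolase best known from brain, averaged 73.9 in bled MPP1 and 3.37 in bled HSC, 18.2 and 2.16 in MPP1, and 31.3, 9.80 and 57.5 in HSC, and 1 cell gave 99.7% of the sum on MPP1 plate 2. Slc16a1, the lactate transporter MCT1, averaged 4.23 in bled MPP1 and 4.12 in bled HSC, 7.39 and 5.69 in MPP1, and 6.76, 11.3 and 0.104 in HSC, and 1 cell gave 84.8% and 85.0% of the sum on the MPP1 plates. Slc16a3, the lactate exporter MCT4, averaged at most 0.206. Bpgm, which makes the 2,3-bisphosphoglycerate of red cells, averaged 17.2 in bled MPP1 and 6.20 in bled HSC, 22.0 and 3.86 in MPP1, and 8.62, 6.13 and 1.72 in HSC. Well filled genes depended less on any cell: the top cell gave at most 12.4% of a plate's Ldha and at most 15.6% of its Pkm2.

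Which isozyme led each step was read as its share of the family's summed mean FPKM on a plate. Pyruvate kinase was Pkm2 alone, with Pklr at FPKM 1 in 0 of 373 cells. A count of 0, taken as allowing up to 3 counts, limits the share to 4.11% of the 73 cells of HSC plate 3 and to 6.25% on the plates with 48 cells, and the exact Clopper-Pearson upper bounds are 4.93% and 7.40%, all for counting error only. Phosphoglycerate mutase was Pgam1, and Pgam2, the muscle form, reached 0.427 FPKM in its highest cell. Lactate dehydrogenase was mostly Ldha, with 81.6% in bled MPP1 and 74.8% in bled HSC, 71.7% and 86.4% in MPP1, and 62.7%, 75.5% and 74.2% in HSC. The Aldoa row held 80.4% to 99.0% of aldolase. These 4 families had the same leading gene on all 7 plates.

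Hexokinase depended on how it was read. By summed FPKM Hk2, the insulin- and hypoxia-responsive form, held 65.3% in bled MPP1 and 88.2% in bled HSC, 59.3% and 51.2% in MPP1, and 57.8%, 71.3% and 29.3% in HSC, and led on 6 of 7 plates. The exception was HSC plate 3, where Hk1, the form of most resting tissues, held 67.6%. By the mean share within each cell that had a hexokinase transcript, Hk2 led on 4 plates and Hk1 on 3, with Hk1 at 57.5% against 42.5% for Hk2 on MPP1 plate 2 and at 59.1% against 37.1% on HSC plate 2. Hk3, a form of myeloid cells, held 26.8% on MPP1 plate 1 and at most 3.69% on the other plates. Hk1 and Hk2 were found together in 54 of 373 cells (14.5%), Hk1 alone in 98, Hk2 alone in 88 and neither in 133, where the product of their shares is 15.5%. Ldha and Ldhb were found together in 187 cells (50.1%, product 48.2%), Ldha alone in 122, Ldhb alone in 30 and neither in 34. These counts pool 7 plates and cells of unequal depth, and are given as a description.

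By summed FPKM, phosphofructokinase and pyruvate dehydrogenase kinase had no single leader on the 7 plates. Pfkl, the liver type, held 60.7% in bled MPP1 and 51.2% in bled HSC, 35.5% and 42.8% in MPP1, and 23.8%, 37.0% and 48.2% in HSC of phosphofructokinase and led on 3 plates. Pfkm, the muscle type, led on MPP1 plate 2 with 43.1% and HSC plate 1 with 51.1%, and Pfkp, the platelet type, on MPP1 plate 1 with 45.4% and HSC plate 2 with 57.6%. On HSC plate 1 a single cell gave 92.6% of the Pfkm sum, and by the mean share within cells the leader was another gene on both MPP1 plates and HSC plate 3. Slc2a3 averaged 3.71 in bled MPP1 and 9.68 in bled HSC, 5.80 and 15.1 in MPP1, and 7.01, 13.7 and 18.6 in HSC, and exceeded Slc2a1 on every plate but HSC plate 1. There Slc2a1 was found in 4 cells, 1 of which gave 74.4% of its sum, and Slc2a3 in 14, and by the mean share within cells Slc2a3 led on all 7 plates, with 77.5% on that one. Pdk3 held 84.4% in bled MPP1 and 76.8% in bled HSC, 14.0% and 31.9% in MPP1, and 33.0%, 72.3% and 86.4% in HSC of its family. Pdk1, the hypoxia-induced form, led on both MPP1 plates with 80.4% and 34.1% and on HSC plate 1 with 49.8%. On MPP1 plate 2 Pdk2 was close behind with 34.0%, and the top cell gave 61.5% of the Pdk2 sum and 87.0% of the Pdk3 sum. The top cell gave 94.7% of the Pdk3 sum on HSC plate 1. By the mean share within cells Pdk1 led on the same plates, with 57.4% and 41.3% in MPP1 and 48.9% on HSC plate 1. Pdk4, induced by fasting, was found in 1 cell. Among the PFKFB enzymes, which make and break the activator of phosphofructokinase, Pfkfb2 led on 6 plates with 43.3% to 97.3%, and Pfkfb1 held 49.7% on HSC plate 2. That value rests on 1 cell, which gave 96.9% of the Pfkfb1 sum, and within cells Pfkfb2 averaged 67.1% there against 12.0% for Pfkfb1. Pfkfb3, the form best known from dividing cells, averaged at most 1.98 FPKM.

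**Figure D3:**
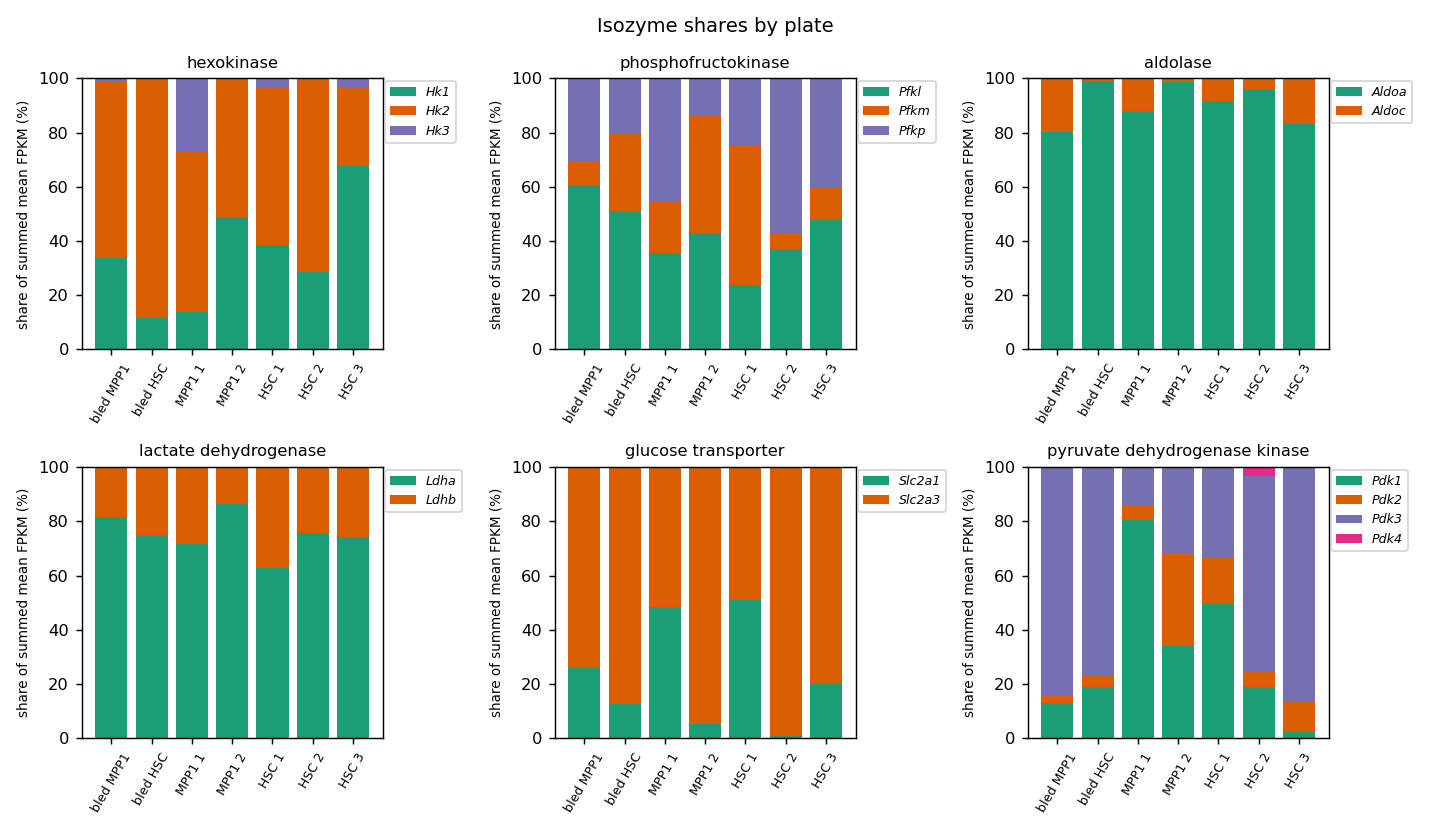
Share of each isozyme in the summed mean FPKM of its family (y axis, %) on each plate (x axis). Ldha leads on every plate, and in these sums Hk2 leads hexokinase except on HSC plate 3, while mean shares within cells put Hk1 first on MPP1 plate 2 and HSC plate 2 as well.

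Of 9 measured steps from hexokinase to pyruvate kinase, with enolase left out, the median cell had a transcript for 7 in bled MPP1, bled HSC and both MPP1 plates, and for 6, 6 and 5 on the HSC plates. All 9 were found in 28.0% of bled MPP1 and 12.5% of bled HSC, in 13.7% and 8.33% of MPP1, and in 2.00%, 7.55% and 2.74% of HSC. The number of the 33 genes found per cell went with the number of all genes found, with rank correlations of 0.55 to 0.82 over the 48 to 73 cells of a plate, both counted from the same library. Wells with no cell had plate medians of 0 to 2 steps.

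MPP1 were set against HSC in a limma fit on plates 1 and 2. None of the 27 genes that averaged FPKM 1 or more there changed: 0 passed at an adjusted p under 0.05 (Benjamini-Hochberg over 9833 genes), against 0.0102% of all genes, and 0 lay at an unadjusted p under 0.05, against 6.78%. The 6 genes with a row that averaged less, and were not tested in any of the 3 fits, were Eno2, Pdk4, Pfkfb3, Pgam2, Pklr and Slc16a3. In MPP1 16 of the 27 had higher values, as 48.4% of all genes did, and 11 lower, with a median log2 difference of 0.14 beside -0.04 over all genes. Without MPP1 plate 2 the members' median was -0.10, beside -0.12 over all genes. In simulated plates with the same layout, limma called 0 of 96 genes changed by 4 on the log2 scale, so a count of 0 here does not show that the groups are alike. Hk2, Pdk1 and Pfkfb4 were higher on both MPP1 plates than on both HSC plates, as 15.8% of all genes were, and the Aldoa and Gapdh rows were lower, as 19.9% were.

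Hk2 averaged 20.2 and 42.8 FPKM in MPP1 against 10.7 and 19.8 in HSC, with 7.69 on HSC plate 3. The log2 difference was 0.97 (SE 0.66, limma adjusted p = 0.839), and it was 0.44 without MPP1 plate 2. Hk2 was found in 47.1% (exact Clopper-Pearson interval 32.9 to 61.5) and 41.7% (27.6 to 56.8) of MPP1, and in 28.0% (16.2 to 42.5), 24.5% (13.8 to 38.3) and 23.3% (14.2 to 34.6) of HSC. Both MPP1 plates lay above all 3 HSC plates, with overlapping intervals. No-cell wells held Hk2 in 7.14% and 38.5% on the MPP1 plates and in 28.6%, 0% and 0% on the HSC plates, and the part of such RNA in the result was not tested. Pdk1 averaged 11.3 and 14.7 in MPP1 against 9.41 and 6.69 in HSC, with 1.17 on HSC plate 3. Pfkfb4, another PFKFB form, averaged 0.811 and 6.03 in MPP1 against 0.518 and 0.013 in HSC, and 1 cell gave 97.5% of the sum on MPP1 plate 2. The Aldoa row averaged 135 and 173 in MPP1 against 341 and 234 in HSC, with a log2 difference of -0.88 (SE 0.41, limma adjusted p = 0.747). Ldhb averaged 58.5 and 37.4 in MPP1 against 98.3 and 56.0 in HSC, and the groups overlapped.

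**Figure D4:**
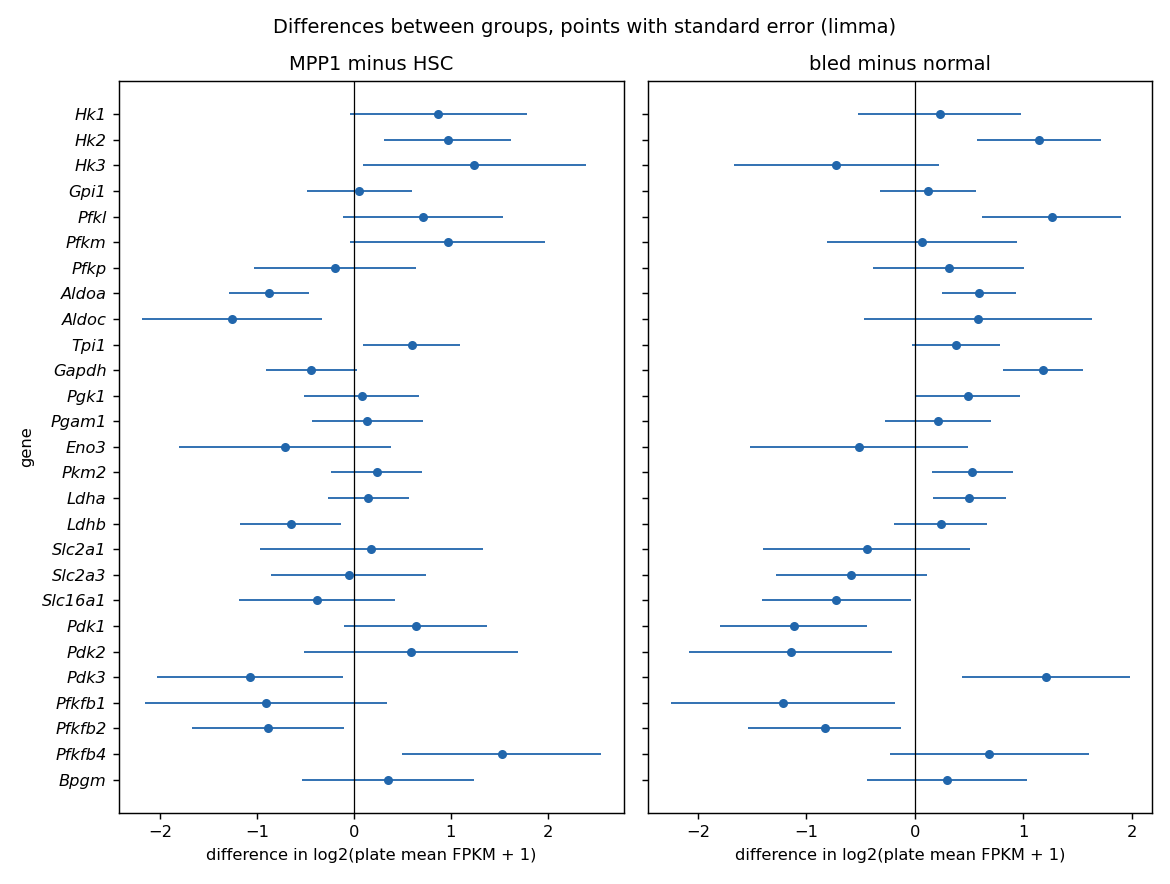
Log2 difference of each tested gene with its standard error, on the log2(plate mean FPKM + 1) scale, between MPP1 and HSC and between bled and normal plates; none passed the adjusted threshold. In the bled comparison the Gapdh row lies at 1.18 and Hk2 at 1.15.

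Neighbouring pathways were read in the same fit. Between MPP1 and HSC 0 genes changed among 5 tested from other isozymes and transporters, 9 from pyruvate entry to mitochondria, 10 from the pentose phosphate pathway, 14 from branches of glycolysis and 14 from the hypoxia response, and 0 of them lay at an unadjusted limma p under 0.05. In the pentose phosphate list, the branch that makes NADPH and ribose, 9 of 10 genes had lower values in MPP1 and 1 a higher one, where 48.4% of all genes were higher. Among the 9, Tkt, Prps1, Rpia and H6pd had log2 differences between -0.13 and -0.01, with SE of 0.62 to 1.14. The list's median was -0.24 on the log2 scale, beside -0.04 over all genes. Its Rpe, an epimerase, averaged 1.99 and 1.64 in MPP1 against 5.36 and 11.2 in HSC, and Taldo1, transaldolase, 72.7 and 51.5 in MPP1 against 106 and 70.3 in HSC. The row named Pgm1, whose accession is that of the phosphopentomutase gene RefSeq now calls Pgm2, averaged 20.0 and 20.0 in MPP1 against 4.51 and 11.0 in HSC, and Psph, which completes serine synthesis, 25.7 and 33.5 in MPP1 against 14.2 and 12.4 in HSC. Brp44 (Mpc2), a subunit of the mitochondrial pyruvate carrier, averaged 28.2 and 33.0 in MPP1 against 25.2 and 12.6 in HSC, and Pdp2, a phosphatase that switches pyruvate dehydrogenase on, 19.6 and 28.0 in MPP1 against 17.9 and 13.0 in HSC. Egln1, an oxygen sensor, averaged 7.70 and 6.85 in MPP1 against 1.22 and 4.59 in HSC, and the stress-induced gene Ndrg1 27.5 and 6.83 in MPP1 against 5.20 and 10.9 in HSC. Slc2a10, a glucose transporter, averaged 0 and 5.18 in MPP1 against 0.016 and 0.0087 in HSC, and Ldhd, which uses D-lactate, 0 and 0.672 in MPP1 against 0 and 6.75 in HSC, each with at most 1 of the 4 plates above FPKM 1. The Pgm1 row, Psph, Brp44, Pdp2 and Egln1 were higher on both MPP1 plates than on HSC plates 1 and 2, as 15.8% of all genes were, and Rpe lower, as 19.9% were. HSC plate 3, outside the fit, held Brp44 at 45.5 and Pdp2 at 33.5, above both MPP1 plates, and Taldo1 at 34.9, below both. It held the Pgm1 row, Psph, Egln1 and Rpe on the same side as HSC plates 1 and 2. Brp44l (Mpc1), the partner subunit of the carrier, and Pdp1, a phosphatase like Pdp2, were lower on both MPP1 plates than on HSC plates 1 and 2, at 13.2 and 12.0 in MPP1 against 16.3 and 21.8 in HSC for Brp44l and 1.71 and 0.508 in MPP1 against 3.64 and 1.89 in HSC for Pdp1. HSC plate 3 held Brp44l at 14.6, above both MPP1 plates, and Pdp1 at 0.225, below both. Brp44l and Pdp1 were named after their values were seen.

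Bled plates were then set against normal ones with cell type as a covariate. Bleeding drives the marrow to make new blood. None of 27 genes changed: 0 passed limma at an adjusted p under 0.05, as did 0% of 10017 genes, and 1, the Gapdh row, lay at an unadjusted p under 0.05, against 5.85% of all genes. On the bled plates 18 of the 27 had higher values, as 50.5% of all genes did, and 9 lower, with a median log2 difference of 0.24 beside 0.01 over all genes. With every cell scaled to the same total the median was 0.00, beside -0.08 over all genes. In simulated plates 37 of 89 genes changed by 4 and 7 of 111 changed by 2 on the log2 scale were called. There 5 unchanged genes were called as well. The bled groups are 1 plate each in a table of their own, so bleeding, table and plate cannot be told apart.

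The Gapdh row averaged 175 FPKM in bled MPP1 and 158 in bled HSC, against 55.1 and 70.3 in MPP1 and 82.2 and 87.7 in HSC. Both bled plates lay above the 4 normal plates, and the log2 difference was 1.18 (SE 0.37, limma adjusted p = 0.797). Pkm2 lay in the same order, with a log2 difference of 0.53, and both were among the 7.94% of all genes with bled plates above the 4 normal ones. Slc16a1 and Pdk1 lay below them, as 6.52% of all genes did, with log2 differences of -0.73 and -1.12. Their shares of cells did not show this order. Slc16a1 was found in 26.0% of bled MPP1 and 20.8% of bled HSC, against 23.5% and 10.4% of MPP1 and 12.0% and 15.1% of HSC. Pdk1 was found in 28.0% of bled MPP1 and 20.8% of bled HSC, against 19.6% and 20.8% of MPP1 and 20.0% and 22.6% of HSC. A single cell gave 93.4% of the Slc16a1 sum on HSC plate 1. HSC plate 3, which was not in the fit, held Slc16a1 at 0.104 and Pdk1 at 1.17, below both bled plates, and the Gapdh row at 108. Hk2 averaged 35.0 in bled MPP1 and 63.5 in bled HSC, against 20.2 and 42.8 in MPP1 and 10.7 and 19.8 in HSC, with a log2 difference of 1.15 (SE 0.57, limma adjusted p = 0.874). By cell type its difference was 2.05 in HSC and 0.24 in MPP1, the value left without the bled HSC plate. Hk2 was found in 54.0% of bled MPP1 and 56.2% of bled HSC, above every normal plate, and in 27.6% and 27.8% of their no-cell wells. Pfkl averaged 30.9 in bled MPP1 and 18.5 in bled HSC, against 7.18 and 20.6 in MPP1 and 4.41 and 11.2 in HSC, with a log2 difference of 1.26 (SE 0.64, limma adjusted p = 0.874).

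In the neighbouring lists 0 of 5, 9, 10, 14 and 13 genes tested for bleeding passed at an adjusted p under 0.05. Pgls, the lactonase of the pentose phosphate pathway, averaged 34.5 in bled MPP1 and 18.7 in bled HSC, against 2.34 and 3.70 in MPP1 and 2.64 and 6.18 in HSC, with a log2 difference of 2.56 (SE 0.70, limma adjusted p = 0.67). The row named Pgm2, whose accession is that of the phosphoglucomutase gene RefSeq now calls Pgm1, averaged 35.1 and 25.6 on the bled plates against 11.0 and 8.94 in MPP1 and 17.3 and 14.2 in HSC (limma adjusted p = 0.836). HSC plate 3, outside the fit, held it at 32.1, above the bled HSC plate, and Pgls at 10.4. Both lay at an unadjusted p under 0.05. The log2 differences of the other genes named by the rule were 0.88 for Brp44, 0.92 for Pdp2, 0.50 for Adpgk, an ADP-dependent glucokinase, -0.92 for Ldhd, -1.33 for the hypoxia-induced demethylase gene Kdm3a and -1.45 for Ndrg1.

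Whether the difference of bled cells was itself different in MPP1 and HSC was tested as an interaction, and 0 of 27 genes passed limma at an adjusted p under 0.05 (0% of all genes). In simulated plates limma called 0 of 96 genes with an interaction of 4 on the log2 scale. The count of 0 therefore does not show that the difference was alike in MPP1 and HSC. The interaction value was above 0 in 15 of 27 genes, and in 53.8% of all genes. Aldoc alone lay at an unadjusted p under 0.05, where 5.1% of all genes did. It was at 3.27 on the log2 scale for bled MPP1 against MPP1 and at -2.10 for bled HSC against HSC, a difference of 5.36 (SE 1.76, limma adjusted p = 0.954). Aldoc was found in 24.0% of bled MPP1 against 5.88% and 2.08% of MPP1, in 6.25% of bled HSC against 8.00% and 18.9% of HSC, and in 17.2% of the no-cell wells of the bled MPP1 plate. A single cell gave 59.8% of the Aldoc sum on the bled MPP1 plate. Pfkfb4 had an interaction value of -2.86 (SE 1.56) and Hk2 of -1.81 (SE 1.04). On the bled HSC plate Pfkfb4 was found in 2 of 48 cells, and the top cell gave 95.8% of its sum. In the neighbouring lists the interaction values ran from -3.05 for Slc2a10, -2.85 for the MYC antagonist Mxi1, -2.80 for Adpgk and -1.60 for Pdp2 to 1.22 for Pgls, 1.33 for the dehydrogenase subunit Dld, 1.67 for Taldo1, 2.43 for Ndrg1, 2.68 for glycogen phosphorylase Pygl and 3.22 for glycogen synthase Gys1, each at an unadjusted limma p above 0.05.

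The bulk libraries showed where isozymes part along the lineages. They have no replicates, so no test was made, and fewer cells of a type and less RNA per cell cannot be told apart in them. A gene was counted as past the fold against bulk HSC at a difference of at least 1 in log2(FPKM + 1), among the 6824 genes, 22 of the 34 included, that averaged FPKM 1 or more over the 18 libraries. The 11 genes with a row that averaged less were Eno2, Eno3, Pdk4, Aldoc, Bpgm, Slc2a1, Slc16a3 and the 4 PFKFB genes.

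Pyruvate kinase changed gene in the red cell gates. Pklr, the gene of the liver and red cell enzyme, was at 1024 FPKM in MEP (megakaryocyte-erythroid progenitors), 229.8 in PreCFU-E, 1722 in CFU-E and 1394 in ProEry, the last 3 being stages of red cell formation, and at 18.6 in CMP (common myeloid progenitors). In the other 13 libraries, bulk HSC included, it was at most 1.27. Pkm2 lay the other way round: it was at 0.2 in MEP, 0.812 in PreCFU-E and 0.08 in CFU-E and was listed at 0 in ProEry, while it was at 91.4 in GMP-7 and 62.4 in GMP-11 (2 gates for granulocyte-macrophage progenitors), 49.1 in MPP2, 43.8 in MPP3, 43.0 in CMP and 3.59 in HSC. Pklr was at least 99.6% of the pair in the 4 gates where it was high, 30.3% in CMP, and 52.3% in preMegE, where both genes were under FPKM 1. The 7 erythroid markers with a row summed to 77.5 FPKM in MEP, 100.4 in PreCFU-E, 303 in CFU-E and 354 in ProEry, to 41.4 in preMegE and to at most 10.23 in the other bulk libraries. Klf1, an activator of red cell genes, was at 12.3 in MEP and at 10.3 in preMegE, which had little Pklr.

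The promoters of Pklr and Pkm are printed here because these genes change places between the gates. Pklr is known to use an upstream start in red cells and a downstream start in liver. The sequences are RefSeq's for build GRCm38.p6, from 250 bases before to 50 after each start, on the plus strand and 5′ to 3′. Capitals mark matches on either strand to 2 motifs. The factors Gata1 and Gata2 are known to bind AGATAA. Factors of the KLF family are known to bind CCACCC.
Pklr upstream start, chr3:89135892-89136191: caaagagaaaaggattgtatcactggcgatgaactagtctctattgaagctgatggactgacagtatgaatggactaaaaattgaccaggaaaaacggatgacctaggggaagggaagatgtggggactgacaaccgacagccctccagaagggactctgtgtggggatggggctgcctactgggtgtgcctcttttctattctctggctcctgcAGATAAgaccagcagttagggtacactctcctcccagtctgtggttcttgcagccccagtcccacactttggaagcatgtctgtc
Pklr downstream start, chr3:89136373-89136672: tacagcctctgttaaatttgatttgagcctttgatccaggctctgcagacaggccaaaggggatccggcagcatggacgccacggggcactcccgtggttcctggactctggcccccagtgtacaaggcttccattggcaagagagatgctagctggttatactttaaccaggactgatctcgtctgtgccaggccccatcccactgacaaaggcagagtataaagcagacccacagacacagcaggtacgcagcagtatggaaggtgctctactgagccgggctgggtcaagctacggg
Pkm upstream start, chr9:59656326-59656625: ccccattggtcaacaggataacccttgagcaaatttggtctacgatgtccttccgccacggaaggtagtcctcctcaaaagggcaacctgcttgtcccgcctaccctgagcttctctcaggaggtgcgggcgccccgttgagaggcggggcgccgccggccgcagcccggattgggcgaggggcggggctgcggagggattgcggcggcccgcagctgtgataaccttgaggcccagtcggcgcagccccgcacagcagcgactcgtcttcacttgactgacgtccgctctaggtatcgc
Pkm downstream start, chr9:59656977-59657276: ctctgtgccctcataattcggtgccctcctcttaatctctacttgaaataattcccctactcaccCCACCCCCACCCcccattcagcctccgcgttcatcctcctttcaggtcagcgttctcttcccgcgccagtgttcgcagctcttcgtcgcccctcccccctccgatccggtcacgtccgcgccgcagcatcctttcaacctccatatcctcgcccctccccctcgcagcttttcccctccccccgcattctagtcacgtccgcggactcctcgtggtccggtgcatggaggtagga
The upstream Pklr window held 1 AGATAA and the downstream window 0, and the downstream Pkm window held 2 CCACCC. Over all 32851 promoters of this length, AGATAA was in 11.2%, and it was in 9 of 53 promoters of the 33 genes (17.0%), and CCACCC in 31.5% and 41.5%. ACGTG, the core of the hypoxia response element, which an E-box can also hold, was in 19.6% of all promoters and in 22 of the 53 (41.5%). The motifs were chosen after the values were seen, a match is not a site, and the deposited values do not say which start was used.

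Hexokinase also differed by gate. Hk1 was at 1553 FPKM in Mature Meg (mature megakaryocytes), 344 in CFU-E, 162 in MPP4, 155 in PreCFU-E, 120.2 in ProEry and 33.0 in HSC, with a median of 72.3 over the 18 libraries. Hk2 was above FPKM 10 in GMP-11 (68.5), PreCFU-E (58.9), GMP-7 (29.1) and HSC (58.1), and at most 6.83 in the other 14. Hk3 was at 20.9 in GMP-11, 12.4 in GMP-7, 9.69 in CMP and 6.86 in preGM, and at most 1.09 elsewhere, so its values followed the granulocyte-macrophage gates.

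A few genes stood high in 1 library. Ldhb was at 120.2 FPKM in MKP (megakaryocyte-committed progenitors), 97.1% of lactate dehydrogenase there, and at most 5.13 in the other libraries. Pgam2 was at 289 in CLP Sca1 high, a lymphoid progenitor gate, and at most 0.131 elsewhere. The top library gave 99.9% of the summed FPKM of Pgam2, 91.0% of Ldhb and 52.8% of Hk1. Pgam2, Ldhb, Pfkp and Pdk2 passed the filter on mean FPKM only through their top library. That library was CLP Sca1 high for Pgam2, MKP for Ldhb, GMP-7 for Pfkp and CFU-E for Pdk2. Each was counted there as past the fold upward. Mature Meg, with the Hk1 peak, had the fewest genes at FPKM 1 (1642 of 18855) and held Rag1, a lymphocyte gene, at 93.0 FPKM. CLP Sca1 high, with the Pgam2 peak, had Flt3 and Il7r, both in its gate, at 4.51 and 4.50 FPKM. The part of other cells in these peaks was not tested.

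Transport of glucose and lactate and the PDK kinases varied as widely. Slc2a3 was at 200.6 FPKM in ProEry, 100.3 in CMP, 83.6 in CLP Sca1 high, 31.0 in MPP1, 0.104 in MPP4 and 295 in HSC, the highest of the 18. Slc2a1, the glucose transporter of many dividing cells, was at most 1.69 in any. Slc16a1 was at 34.9 in PreCFU-E, 19.2 in ProEry, 17.9 in MEP, 16.8 in CFU-E, 21.3 in GMP-11, 16.0 in CMP and 0.322 in HSC. Pdk1 was at 65.5 in preMegE, 34.3 in ProEry, 25.5 in CLP, 22.1 in MEP and 1.28 in HSC. Pdk3 was highest in MKP at 25.3, and Pdk2, another form, in CFU-E at 12.0, against 0.176 and 1.70 in HSC. Pfkm was at 31.0 in MPP2 and 0.345 in HSC. Bpgm was at most 3.03, with 1.94 in ProEry, and Eno2 and Pdk4 were listed at 0 in all 18.

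**Figure D5:**
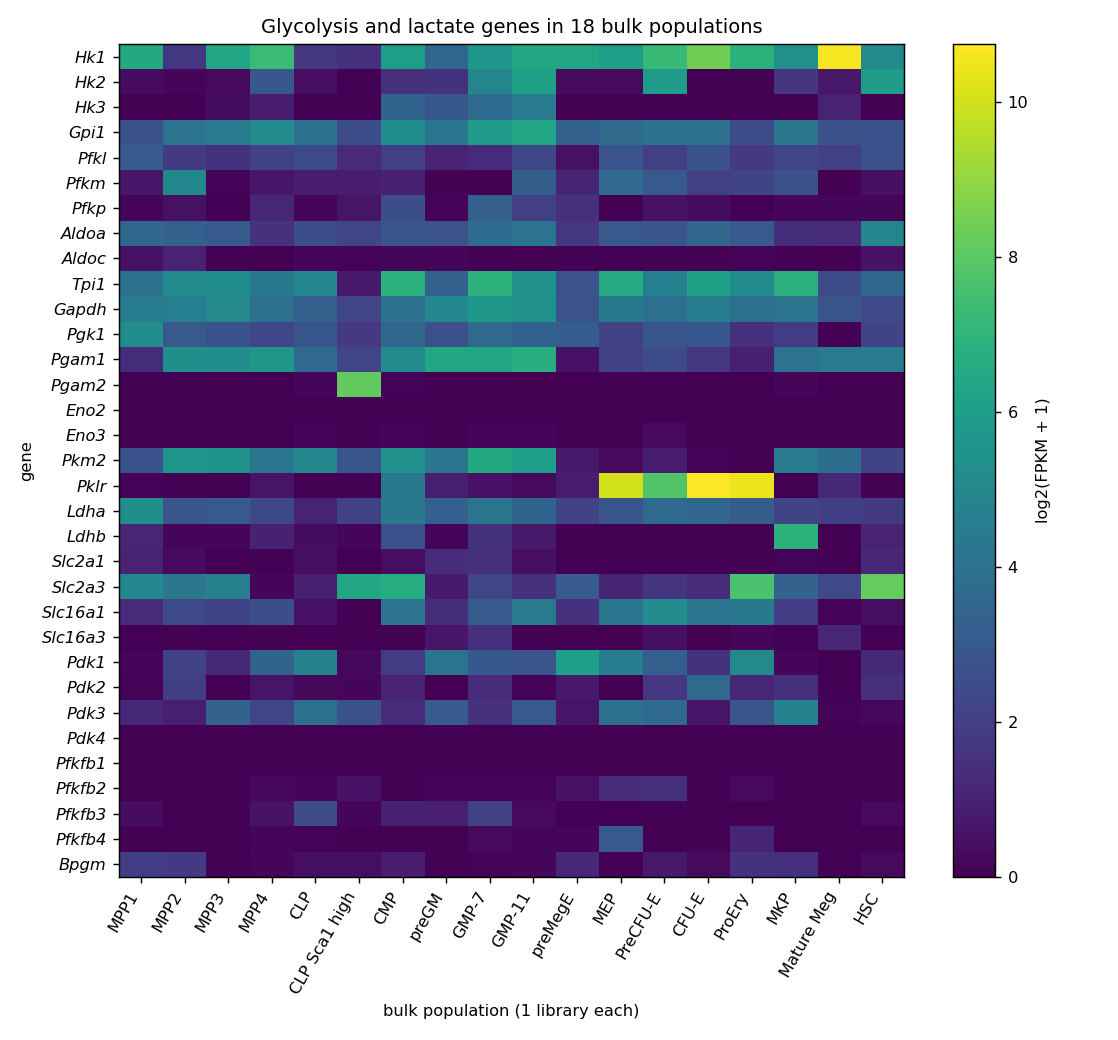
Level of each of the 33 genes in 18 bulk populations, 1 library each, as log2(FPKM + 1) by colour. Pklr is high in MEP, PreCFU-E, CFU-E and ProEry, where Pkm2 is low, and Hk1 in Mature Meg, Pgam2 in CLP Sca1 high and Ldhb in MKP stand out.

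Single enzymes differed between the granulocyte-macrophage gates and HSC in both directions. Gpi1 was at 81.8 FPKM in GMP-11 and 59.7 in GMP-7 against 5.46 in HSC, Pgam1 at 103 and 85.1 against 21.1, and Tpi1 at 41.8 and 119 against 11.1. Aldoa was at 16.0 in GMP-11 and 12.6 in GMP-7 against 28.6 in HSC. Tpi1 in GMP-11 was below its values in CMP, MKP, MEP and CFU-E. Gpi1, Pgam1, Tpi1 and Aldoa were picked after their values were seen. Of the 22 genes 14 were past the fold upward in GMP-11 and 2 downward, where 53.8% and 11.3% of all genes were. In GMP-7 they were 12 and 3 (57.9% and 10.3% of all genes), in CMP 12 and 3 (53.3% and 10.4%) and in preGM 9 and 6 (36.9% and 15.4%). The counts for myeloid gates lay near the shares of all genes.

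Among the multipotent gates 5 of 22 were up and 5 down in MPP1 (24.8% and 17.1% of all genes), 7 and 4 in MPP2 (33.3% and 16.7%), 8 and 5 in MPP3 (32% and 17.4%) and 8 and 3 in MPP4 (35.7% and 15.7%). In the lymphoid gates they were 5 and 5 in CLP (37.6% and 16.1%) and 2 and 8 in CLP Sca1 high (28.7% and 19.8%). On the way to red cells and megakaryocytes they were 4 and 7 in preMegE (30.6% and 18.1%), 9 and 7 in MEP (36.5% and 17.6%), 10 and 5 in PreCFU-E (51% and 12.3%), 9 and 6 in CFU-E (43.7% and 15.6%), 9 and 5 in ProEry (46.5% and 14.4%), 8 and 4 in MKP (37.2% and 16.2%) and 4 and 8 in Mature Meg (13.1% and 28.4%). All 17 comparisons share bulk HSC, a single library.

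The bulk and single-cell values of MPP1 and HSC differed. Hk2 was at 0.24 FPKM in bulk MPP1 and 58.1 in bulk HSC, the opposite order to the single-cell plates. Ldha was at 40.0 in bulk MPP1 and 2.53 in bulk HSC, while its normal plates ran from 148 to 238. Slc2a3 was at 31.0 in bulk MPP1 and 295 in bulk HSC, while its plates of the 2 cell types overlapped. Ldhb was at 1.203 in bulk MPP1 and 1.08 in bulk HSC, against 37.4 to 98.3 on the normal plates. The tables were scaled separately, so these levels are set side by side with no test. Pkm2 exceeded Pklr in single MPP1, single HSC and the bulk libraries of both.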

How the data were processed

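The authors deposited FPKM values per gene and library. Per the submitters' processing notes, TopHat 1.3.3 and Cufflinks 1.2.1 were used with mouse build mm9, and Bowtie2 2.2.1 is named for HSC plate 3. FPKM are relative to each library's own total. Depth is unknown: between neighbouring libraries that were compared, the ratios of low values did not settle on a common step for most genes. Per the labels' protocols, cells were sorted by surface markers. The authors gave 1 table for HSC and MPP1 plates numbered 1 and 2, and others for the bled plates and for HSC plate 3. A repeat run of HSC plate 1 (96 samples) shares its wells and cell numbers, so that plate's columns could hold either run.

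Wells labelled with 1 cell and at least 1000 genes at FPKM 1 were used, and a gene at FPKM 1 or more counted as found. Exact Clopper-Pearson intervals (95%) cover counting error only. The plate was the replicate, and the labels call the normal plates biological replicates without saying whether they came from separate mice, so p-values measure the spread between plates, which may be technical. Plate means were tested as log2(mean FPKM + 1) with limma 3.58.1 in R 4.3.3 (intensity trend, two-sided, Benjamini-Hochberg over all genes), keeping genes whose plate means averaged FPKM 1 or more. Differences on this scale understate low genes. The fit was tested on simulated plates. Bled and normal plates were fitted with cell type as covariate, and their interaction apart. Alternatives were other pseudocounts, filters, scalings and cells, the replicate number as a block, HSC plate 3 added, and each plate left out.

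Members and lists were chosen with earlier results of these data known. All members could be named, and of each other list the genes named are those at an unadjusted p under 0.05 or else the 2 with the smallest p. Python 3.11.15 with pandas 2.3.3, scipy 1.17.1 and matplotlib 3.10.9 was used.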

Additional observations from a re-analysis of the deposited data

Results flagged for a closer look

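Enolase, the step between phosphoglycerate mutase and pyruvate kinase, could not be read from Eno1, and the single-cell tables hold a row, Gm5506, that RefSeq names Eno1b, an intronless copy of Eno1. This row is outside the 34 genes and was chosen after its values were seen. It is given because its signal, in a row outside the comparisons above, lay above that of wells with no cell, as that of well filled members did: Gm5506 was found in 82.7% ± 10.0 of cells and in 26.4% ± 12.1 of no-cell wells (mean and SD over 7 plates). By plate it averaged 308 FPKM in bled MPP1 and 171 in bled HSC, 182 and 179 in MPP1, and 285, 178 and 86.7 in HSC. Whether reads of Eno1 were counted in this row cannot be told from the deposited values.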

How the results depend on the processing

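In each of the 3 comparisons of single cells, 0 members passed under every alternative run, the replicate block included. At an unadjusted limma p under 0.05 there were 0 to 4 members between MPP1 and HSC, 1 to 6 for bled plates and 0 to 3 for the interaction. The count of all genes called moved between MPP1 and HSC from 1 to 0 without the filter on low values, 6 with a filter at FPKM 5, 6 with every cell scaled to the same total, 38 with log2 values averaged over cells and 58 with the replicate block, and was 0 without any 1 plate. The numbers do not pair the plates (deviations of same-numbered plates correlated at 0.042 over 9833 genes). Between bled and normal plates it moved from 0 to 6 with log2 values averaged over cells, and was 0 to 1 with a plate left out. For the interaction it moved from 0 to 323 without the filter, and was 0 with each normal plate left out, which was added once the data had been seen. The named differences of Hk2, Pfkl, Aldoc, Pfkfb4, Pgls, the Pgm2 row and the Aldoa and Gapdh rows kept their direction under every alternative. Leaving out a plate gave -0.10 to 0.21 for the median difference of members between MPP1 and HSC, 0.11 to 0.33 for bled plates and -0.29 to 0.25 for the interaction, the lowest without MPP1 plate 1. Hk2 on bled plates differed by 0.24 without the bled HSC plate. The median share of cells per gene was 12.9% at FPKM 5, against 18.3%, and the bulk counts stayed within 1.5 times their values. The leading gene of a family on a plate was the same in 69 of 70 cases with every cell scaled to the same total. It was the same in 64 with cells of at least 2000 genes. With median shares within cells it was the same in 61, where tied medians went to the gene listed first. Depth is unknown and each bulk population is 1 library, which limits low genes most.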
